A study of Arabidopsis thaliana with 4 samples.

Results

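Calcium ions act as a signal inside plant cells, and EF-hand proteins read it. An EF-hand is a helix-loop-helix that binds calcium, and a sensor protein that fills its loops changes shape and then acts on partner proteins. Conventional calmodulins are nearly identical to each other, while the calmodulin-like proteins (CMLs) differ in length, number of EF-hands and tissue of expression, and a few small sensors carry a single working EF-hand. In anthers and pollen, calcium signals are known from pollen germination and pollen tube growth.

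The genes described here are the calmodulin, CML and small EF-hand genes of Arabidopsis thaliana. They were chosen by locus from a list of 58 genes, and 37 of the 58 had a probe set on the array that the platform annotation assigns to that gene alone. The whole series names 13333 genes in this way. AT4G27280 and AT2G36180 were put on the list because earlier results of these data showed them to be higher in cdm1, and AT2G46600 and PBP1 (AT5G54490) stand with them at its head. The change in cdm1 was therefore known when the list was made, and for the 3 of these 4 genes that were measured it is given as a description with no p-value. The other 34 measured genes were listed by family. Where RefSeq gives only a locus, the CML number printed here is that of the published family naming.

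Total RNA came from unopened flower buds, which the titles call young, of the cdm1 mutant (2 arrays, biological replicates) and of wild type plants (2 arrays, biological replicates), both in the Col-0 background at day 24 after seed germination. CDM1 (CALLOSE DEFECTIVE MICROSPORE1) encodes a CCCH zinc finger protein. The labels do not give the cdm1 allele or the number of plants per sample, and the growth protocol mentions moderate drought for some plants without saying which. The comparison asks which of these genes differ in level between mutant and wild type buds.

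The values are log2 expression levels per probe set, between 2.64 and 14.02 on these arrays. The labels could not be checked on CDM1 itself, which is not analysed here. Replicate arrays correlated across probe sets at r = 0.996 in cdm1 and 0.998 in wild type. Over the 22746 probe sets of the array, limma called 303 at an adjusted p under 0.05, a share of 1.33% (0.602% higher and 0.73% lower in cdm1). A level is a property of its own probe set and is not set against that of another gene here. The dimmest 33.3% of probe sets have means below 5.32, a limit used below only to say where a signal was low. Whether such signals lay above background was not tested. Expression was measured in whole buds, so fewer cells of a type and less RNA per cell cannot be told apart.

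The list's name is only partly covered by the single-gene probe sets of the platform annotation. None of the 7 conventional calmodulin genes (CAM1 to CAM7) had a single-gene probe set, and of the 5 CMLs closest to calmodulin only CML10 (AT2G41090) did. The touch gene TCH2 (CML24) and the related TCH3 (CML12), the centrins CML19 and CML20, the polcalcin CML29 and PBP1 are likewise not analysed here. The measured genes are thus CMLs and other small EF-hand genes. Of these 37, 22 lay in the dimmest 33.3% of probe sets.

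In cdm1 buds, 3 small EF-hand genes stood well above wild type. AT4G27280 was 3.61-fold higher, AT2G46600 was 1.96-fold higher, and AT2G36180 was higher by 1.28 on the log2 scale from a dim signal. Of the other 34 genes, limma called 0, with p-values adjusted across the whole array (6 at an unadjusted p under 0.05). Their largest differences were increases in CML35, CML38 (a dim signal), CML23 and CML36, of 0.45 to 0.55 on the log2 scale.

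AT4G27280 encodes a small protein with a single EF-hand, described in the literature as CMI1, a calcium-dependent regulator of ICR1, which is an effector of ROP GTPases. It read 9.59 and 9.46 on the cdm1 arrays, against 7.82 and 7.53 on the wild type arrays. Both mutant arrays stood more than 1 log2 unit above both wild type arrays, and the wild type pair was the more spread of the genotypes. The means were 9.53 ± 0.091 in cdm1 and 7.68 ± 0.21 in wild type (SD, n = 2 each), a log2 difference of 1.85 (SE 0.13). This was the 9th highest difference among the 22746 probe sets. Leaving out 1 array at a time gave differences from 1.71 to 2.00.

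AT2G46600 encodes KIC, a single EF-hand protein known for binding the calmodulin-binding kinesin KCBP, which acts in trichome shape. Its levels were 10.06 and 10.12 on the cdm1 arrays, against 9.16 and 9.08 on the wild type arrays. The groups did not overlap, and the replicates of each genotype lay close together. Its means were 10.09 ± 0.041 in cdm1 and 9.12 ± 0.057 in wild type (SD, n = 2 each), a log2 difference of 0.97 (SE 0.093). That was the 115th highest difference among all probe sets. With 1 array left out the difference ran from 0.93 to 1.01. PBP1, the remaining member of this small family and a binding partner of the auxin-related kinase PINOID, is not analysed here.

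AT2G36180 (CML31) encodes a calmodulin-like protein of the same branch as CML25 to CML36. It read 4.49 and 4.52 on the cdm1 arrays, against 3.25 and 3.19 on the wild type arrays. All 4 values lie in the range of the dimmest 33.3% of probe sets, and the groups did not overlap. The means were 4.50 ± 0.024 in cdm1 and 3.22 ± 0.046 in wild type (SD, n = 2 each), a log2 difference of 1.28 (SE 0.091). No fold is given, since a wild type signal this low may be background. The difference was between 1.25 and 1.32 with 1 array left out.

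All 3 genes were among the 303 called probe sets, which makes 3 of the 37 measured genes, all higher. Of all probe sets, 1.33% were called in either direction and 0.602% higher. Since this change was known when the list was made, the count shows nothing about the family. Without wild type replicate 1, and again without wild type replicate 2, limma called 0 of all 22746 probe sets, these 3 included (1619 and 2133 passed at an unadjusted p of 0.05). Adding the replicate number to the model as a block also left limma with 0 calls on the array, while 3110 probe sets had an unadjusted p under 0.05.

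**Figure D1:**
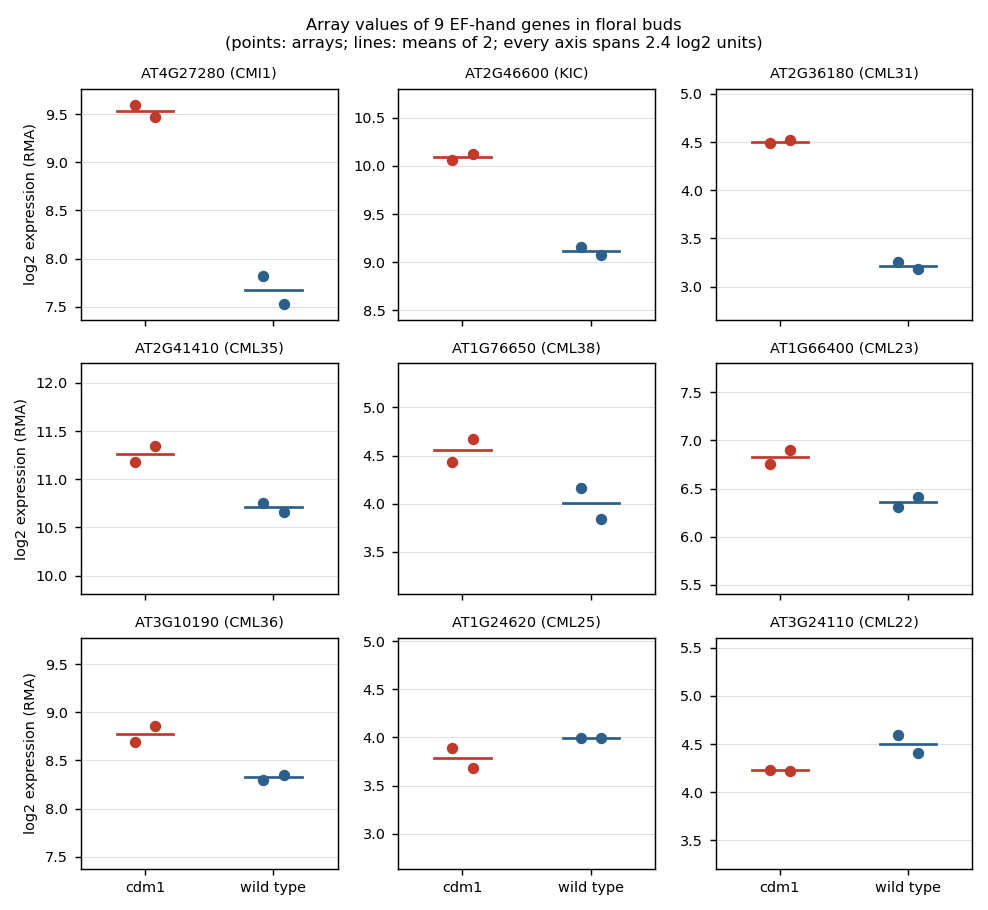
Level of 9 EF-hand genes on each array, as log2 expression, for cdm1 (red) and wild type (blue); each point is an array, each line the mean of 2 arrays, and every vertical axis spans the same number of log2 units. AT4G27280, AT2G46600 and AT2G36180 show the widest gaps, CML35, CML38, CML23 and CML36 show smaller upward gaps, and CML25 and CML22 lie lower in cdm1. The signals of AT2G36180, CML38, CML25 and CML22 are dim.

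The 34 genes outside the head of the list had 0 calls after adjustment, where 1.33% of all probe sets were called. At an unadjusted p under 0.05, 6 of the 34 passed, against 15.3% of all probe sets. Of these, 5 were higher in cdm1 (7.7% of all probe sets) and 1 was lower (7.55%). The log2 difference was above 0 for 21 of the 34, below 0 for 12 and at 0 for 1, and 50.9% of all probe sets lay above 0. Their median log2 difference was 0.031, and that of all probe sets was 0.0036. With 1 array left out, the median of the 34 was 0.019 and 0.11 without cdm1 replicates 1 and 2, and 0.067 and 0.049 without wild type replicates 1 and 2. Both cdm1 arrays lay above both wild type arrays for 10 of the 34, where 23.7% of all probe sets did so, and below them for 4, where 23.6% did. Of 19 of the 34 genes the difference was under 0.1 in size.

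This split and the counts on it were chosen after the values were seen. The 13 of these 34 genes outside the dimmest 33.3% of probe sets lay mostly above 0. In 12 of the 13 the log2 difference was above 0, against 50.1% of all probe sets with such a signal, and the exception was CML42 (AT4G20780) at -0.045. Their median was 0.25, and none of them passed the test. For 6 of the 13, both cdm1 arrays lay above both wild type arrays (25.8% of such probe sets), and for 0 of the 13 both lay below (27.2%). The count of differences above 0 was 11 after a second quantile normalisation and 10 to 12 with 1 array left out. The 21 dim genes had a median of -0.0082. They comprised 9 genes above 0, 11 below and CML40 (AT3G01830) at 0.00.

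**Figure D2:**
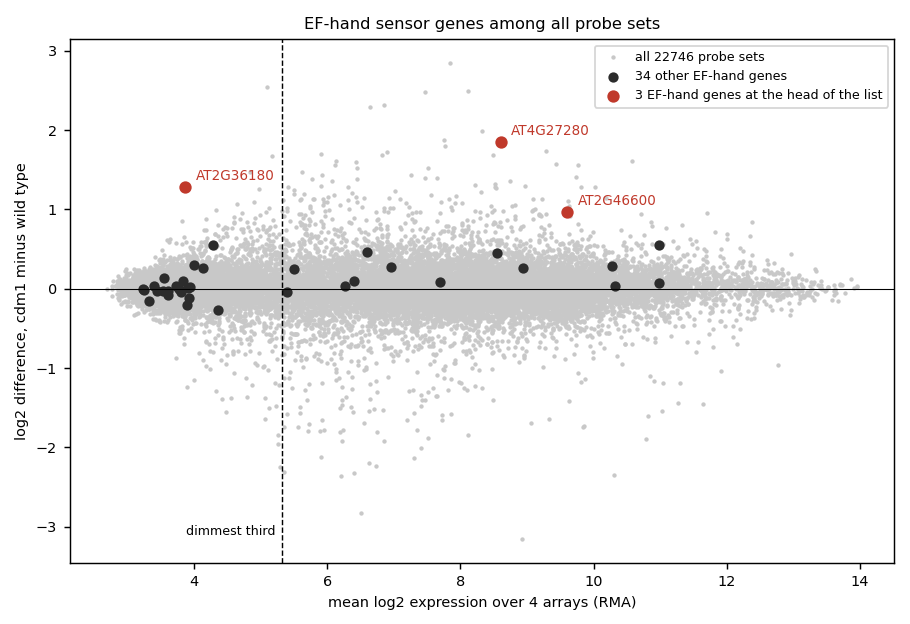
Log2 difference between cdm1 and wild type (vertical axis) against the mean log2 expression over 4 arrays (horizontal axis), for all 22746 probe sets (grey), the 34 other EF-hand genes (black) and the 3 genes at the head of the list (red). The dashed line marks the dimmest 33.3% of probe sets at 5.32. To its right 12 of 13 black points lie above 0, against 50.1% of all probe sets there. This split was chosen after the values were seen, and limma called 0 of the 13.

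In the branch from CML25 to CML36, which includes the polcalcins, small pollen proteins with a pair of EF-hands, 11 of 12 listed genes were measured. Apart from CML31, 6 of the 10 had differences above 0 and 4 below. CML35 (AT2G41410) read 11.18 and 11.34 on the cdm1 arrays, against 10.76 and 10.66 on the wild type arrays. The mutant arrays were both higher, by a log2 difference of 0.55 (SE 0.10, limma adjusted p = 0.0829). It was the 1 gene of the 34 that passed under some alternatives, with an intensity trend in the variance prior (0.0394) and with robust estimation added (0.0261), and over all alternatives its adjusted p ran from 0.0261 to 0.478.

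CML36 (AT3G10190), known to bind and stimulate the plasma membrane calcium pump ACA8, read 8.69 and 8.85 on the cdm1 arrays, against 8.30 and 8.35 on the wild type arrays. The groups did not overlap, and the log2 difference was 0.45 (SE 0.10, limma adjusted p = 0.122). CML27 (AT1G18210) read 10.56 and 10.28 in cdm1 against 10.06 and 10.21 in wild type. This is a narrow gap, with a difference of 0.28 (SE 0.13, limma adjusted p = 0.364).

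CML25 (AT1G24620), which acts in pollen germination and pollen tube growth, read 3.89 and 3.68 on the cdm1 arrays, against 4.00 and 3.99 on the wild type arrays. Both mutant values were lower, all 4 are dim, and the log2 difference was -0.21 (SE 0.11, limma adjusted p = 0.421). The measured polcalcin gene CML28 (AT3G03430) was also dim, at 3.63 and 3.56 in cdm1 against 3.70 and 3.55 in wild type, with overlapping groups. The remaining members of this branch (CML26, CML30, CML32, CML33 and CML34) had differences between -0.12 and 0.25, and none passed.

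Among the CMLs known from touch, stress and immunity, 11 of 13 listed genes were measured, 9 of them dim (all but CML23 and CML42). None passed the test. Both cdm1 arrays lay above both wild type arrays for 4 of the 11 (23.7% of all probe sets) and below them for 0 (23.6%). CML23 (AT1G66400), which with TCH2 acts on nitric oxide levels and the transition to flowering, read 6.75 and 6.90 on the cdm1 arrays, against 6.31 and 6.41 on the wild type arrays. The groups were separate, with a log2 difference of 0.47 (SE 0.10, limma adjusted p = 0.120). CML38 (AT1G76650), a protein of stress granules in low oxygen, read 4.44 and 4.67 in cdm1 against 4.17 and 3.84 in wild type. Its difference was 0.55 with a larger error (SE 0.15, limma adjusted p = 0.170), and ran from 0.39 to 0.71 with 1 array left out.

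CML46 (AT5G39670), which acts on salicylic acid in immunity, read 4.24 and 4.07 in cdm1 against 3.80 and 3.90 in wild type, a difference of 0.30 (SE 0.10, limma adjusted p = 0.261). CML41 (AT3G50770), which promotes callose deposition at plasmodesmata in immune responses, read 4.25 and 4.30 in cdm1 against 3.90 and 4.11 in wild type. Its groups did not overlap, by a small margin, at a difference of 0.26 (SE 0.11, limma adjusted p = 0.328). For CML43 (AT5G44460), a gene of the hypersensitive response, the difference was 0.095 (SE 0.11) and the groups overlapped. The remaining members (CML37, CML39, CML40, CML42, CML44 and CML47) lay between -0.046 and 0.030.

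The group from CML13 to CML22 had 8 measured genes of 10 listed, with 4 differences above 0 and 4 below. CML13 (AT1G12310) and CML14 (AT1G62820) encode close relatives that serve as light chains of myosins. CML14 read 9.13 and 9.02 on the cdm1 arrays, against 8.72 and 8.91 on the wild type arrays, a log2 difference of 0.26 (SE 0.11, limma adjusted p = 0.334). CML13 read 11.06 and 10.97 in cdm1 against 10.94 and 10.96 in wild type, a difference of 0.066 (SE 0.092). In both genes the mutant arrays were the higher ones, by margins that did not pass.

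CML22 (AT3G24110) was the 1 gene of the 34 that was lower at an unadjusted p of 0.05. It read 4.23 and 4.22 on the cdm1 arrays, against 4.59 and 4.41 on the wild type arrays, all dim. Its difference of -0.27 (SE 0.10) had a limma adjusted p of 0.296. CML16 (AT3G25600) read 6.84 and 7.35 in cdm1 against 6.89 and 6.74 in wild type. The cdm1 arrays disagreed here more than in any other measured gene of the list, and the difference of 0.28 (SE 0.18) fell to 0.023 without cdm1 replicate 2. CML21 (AT4G26470) was at -0.083 (SE 0.10), and CML15, CML17 and CML18 were between -0.024 and 0.0067.

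Of the smaller classes, no gene passed. CML10, which binds a phosphomannomutase of ascorbate synthesis, read 10.27 and 10.42 on the cdm1 arrays, against 10.43 and 10.19 on the wild type arrays, with overlapping groups and a log2 difference of 0.032 (SE 0.12). CML6 (AT4G03290) was at -0.16 (SE 0.11) and CML4 (AT3G59440) at -0.031 (SE 0.14), both from dim signals. The penta-EF-hand genes CML50 (AT5G04170) and CML48 (AT2G27480) were at 0.091 (SE 0.11) and 0.034 (SE 0.10). The signs of CML4, CML10, CML48 and CML50 turned with 1 array left out, and that of CML10 also after a second quantile normalisation.

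**Figure D3:**
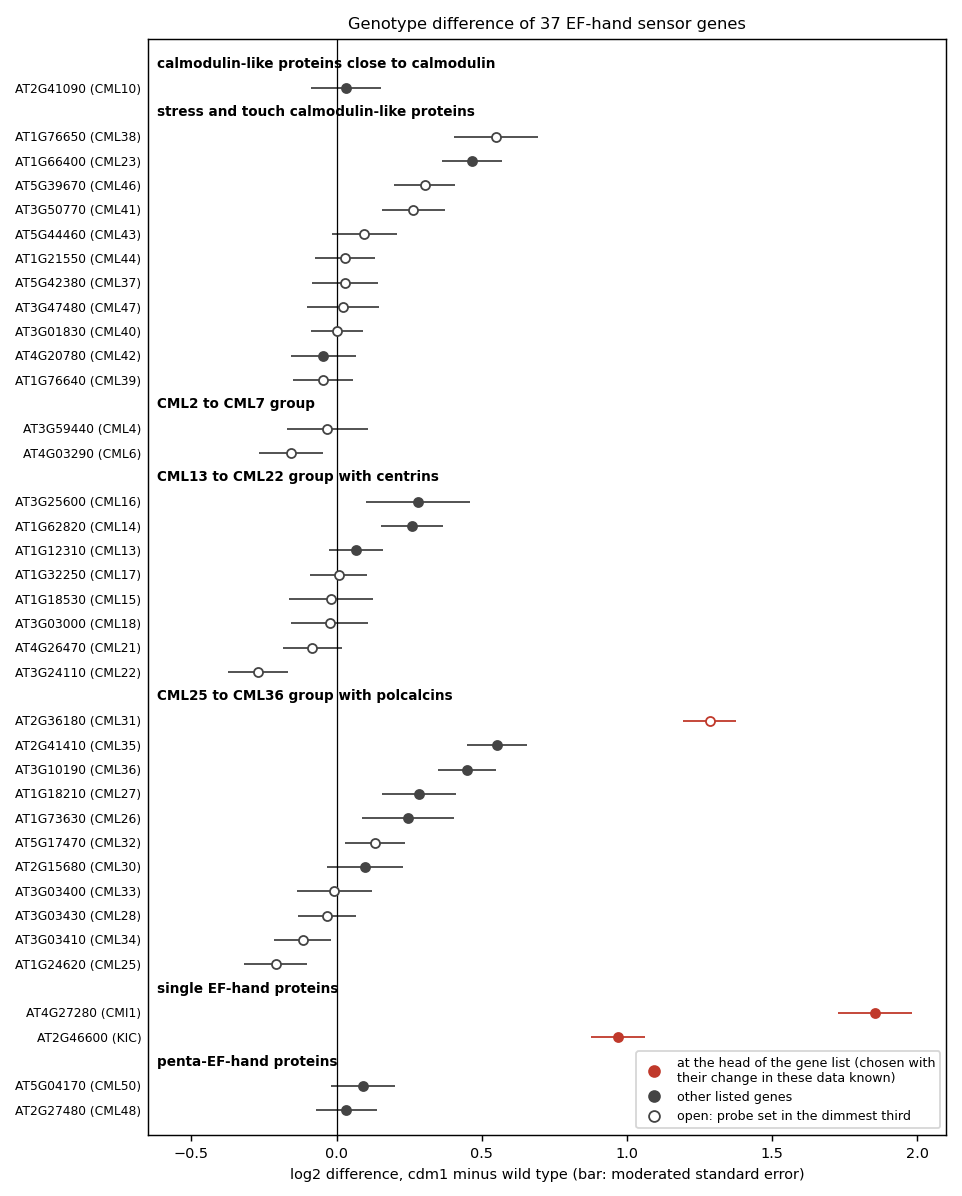
Log2 difference (cdm1 minus wild type, horizontal axis) of the 37 measured EF-hand genes by class, each with its moderated standard error. Red marks the 3 genes at the head of the list, open circles mark probe sets in the dimmest 33.3%, and the other 34 genes lie between -0.27 and 0.55.

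None of the measured genes next to these 3 EF-hand genes passed the test. Of the 18 protein-coding genes within 3 places on either side of AT4G27280, AT2G36180 and AT2G46600 in RefSeq's gene order, 11 were measured. Their log2 differences ran from -0.29 to 0.14, and limma called 0 of them (lowest adjusted p = 0.583). Of all probe sets 1.33% were called, so 0 of 11 says little about the neighbouring genes. The direct neighbours of AT4G27280 were AT4G27270, at -0.13 (SE 0.11), and AT4G27290, at -0.095 (SE 0.13). Among the listed genes themselves, CML38 and CML39 (AT1G76640) lie side by side. CML39 was at -0.046 (SE 0.10), from 3.77 and 3.79 in cdm1 and 3.92 and 3.73 in wild type, while CML38 was at 0.55. The difference between these neighbours was not tested. CML33, CML34 and CML28 follow each other with 1 gene between neighbours and were at -0.0082, -0.12 and -0.033.

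Of the wider calcium pathway, only calmodulin targets had probe sets that the platform annotation assigns to a single gene. Whether the 8730 probe sets not listed in the annotation read other genes of these lists was not checked. The lists held 97 genes for CBL sensors, calcium-dependent protein kinases, calcium pumps and exchangers, cyclic nucleotide-gated channels, and calmodulin targets and partners. Of these, 3 had a single-gene probe set, all for CAMTA transcription factors, which bind calmodulin. None of the 3 passed the test, where 1.33% of all probe sets did. All 3 lay outside the dimmest 33.3% of probe sets and had log2 differences below 0. For 2 of them both cdm1 arrays lay below both wild type arrays, as 27.2% of probe sets outside the dimmest 33.3% did. CAMTA5 (AT4G16150) read 7.73 and 7.71 on the cdm1 arrays, against 8.04 and 8.03 on the wild type arrays, a log2 difference of -0.32 (SE 0.089, limma adjusted p = 0.185). The mutant arrays were both lower and the replicates nearly equal. CAMTA6 (AT3G16940) was at -0.33 (SE 0.15, limma adjusted p = 0.364), and CAMTA4 (AT1G67310) was at -0.15 (SE 0.15), or 0.056 without cdm1 replicate 1.

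**Figure D4:**
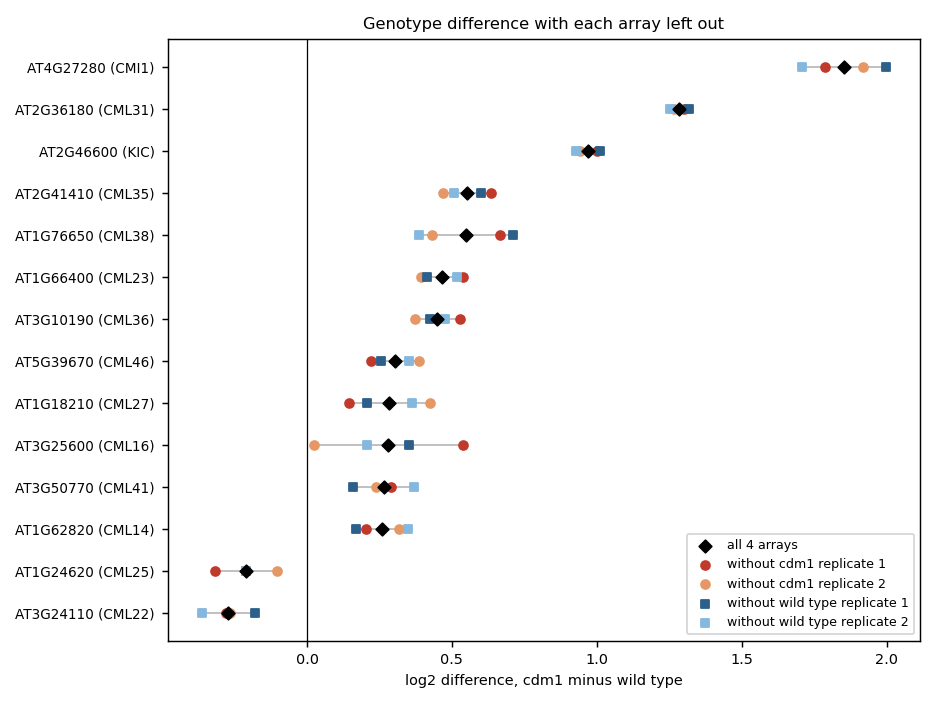
Log2 difference (cdm1 minus wild type, horizontal axis) of 14 EF-hand genes with all 4 arrays (diamonds) and with each array left out in turn (circles for cdm1 arrays, squares for wild type arrays). AT4G27280 stays between 1.71 and 2.00, AT2G36180 between 1.25 and 1.32 and AT2G46600 between 0.93 and 1.01, while CML16 ranges from 0.023 to 0.54.

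The 14 measured markers stood for floral organs, tapetum, late pollen, leaf photosynthesis, and touch and wounding. Of these, limma called 0, where 1.33% of all probe sets were called, and 3 had an unadjusted p under 0.05, where 15.3% did. The 3 measured tapetum genes, of 6 listed, all had both cdm1 arrays above both wild type arrays, as 25.8% of probe sets outside the dimmest 33.3% did. Their summed level was 13.22 and 13.37 on the log2 scale in cdm1, against 13.01 and 12.99 in wild type. ATA27 was at 0.94 (SE 0.18, limma adjusted p = 0.0905; it passed without cdm1 replicate 1 and with robust variance estimation) and AMS at 0.18 (SE 0.089, limma adjusted p = 0.395). The 5 measured late pollen genes, of 10 listed, all had log2 differences below 0, and for 4 of them both cdm1 arrays lay below both wild type arrays, as 23.6% of all probe sets did. They had a summed level of 7.62 and 7.51 in cdm1, against 7.89 and 7.73 in wild type. AT3G01270 was at -0.54 (SE 0.13, limma adjusted p = 0.134) and PLIM2A at -0.49 (SE 0.18, limma adjusted p = 0.271). Both were among the 3 of these 5 genes with dim signals. For touch and wounding, 1 of 13 listed genes was measured, the dim ZAT10 (AT1G27730). It read 4.63 and 4.60 in cdm1 against 4.60 and 4.08 in wild type. The part of these tissues and of handling in the higher levels of AT4G27280, AT2G46600 and AT2G36180 was not tested.

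The measured floral organ genes gave no difference past the threshold. UFO was at -0.11 (SE 0.12), from a dim signal, and PTL at 0.065 (SE 0.13), of 3 measured and 10 listed, with overlapping groups. Both of these turned sign with 1 array left out. The leaf genes LHCB4.2 and LHCB4.1, of 8 listed, were at 0.085 (SE 0.097) and 0.058 (SE 0.11), and LHCB4.1 was at -0.057 without wild type replicate 1.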

How the data were processed

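The deposited values are log2 expression levels, 1 for each probe set on each array, made by the authors from 500 ng of total RNA per sample on Affymetrix arrays, per the labels. Per the submitters' processing notes, RMA and affy were used (version: not given in the sources used here). RMA normalises the arrays together and compresses differences of dim probe sets. Arrays have no read depth, and precision is limited by having 2 per genotype.

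Probe sets were tied to loci through GEO's platform annotation and RefSeq gene records (TAIR10.1, for names and gene order only). Of 22746 probe sets, 13513 had 1 symbol, 503 several and 8730 were not listed, and 13484 gave 13333 loci. Only probe sets with 1 symbol were matched to loci. By this choice none of the 37 measured genes shared its probe set with another annotated gene. It says nothing about listed genes without a single-gene probe set.

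Genotype was the single term of a model fitted over every probe set in limma 3.58.1 (R 4.3.3), with two-sided empirical Bayes tests and Benjamini-Hochberg adjustment over all probe sets. Differences are cdm1 minus wild type with the moderated SE. On simulated data for this comparison (22746 probe sets, 100 changed by each fold), 88% of 2-fold and 100% of 4-fold changes were recovered, with 13 false among 201 calls. The simulation took its variances from limma's fitted prior, with equal noise in both genotypes. On the real arrays, the differences between replicates had an SD of 0.234 in cdm1 and 0.174 in wild type. These rates are therefore not those of the real data.

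The genes, lists and alternatives were chosen with earlier results of these data known. Values are printed for the genes at the head of the list, the 5 genes with the smallest p in each class (all in classes of 5 or fewer), the 3 smallest in each pathway list and the 2 smallest in each marker list. Matching by symbol where no gene ID matched (CML28) was added after the files were seen. CML28, CML33, CML34, CML39, CML40 and CML42 and the neighbouring genes are named outside this rule and were chosen after their values were seen. The genes shown in the plots, and the choice to give AT2G46600 without a p-value, were likewise made after the values were seen. No sequences were used.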

Additional observations from a re-analysis of the deposited data

How the results depend on the processing

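AT4G27280, AT2G36180 and AT2G46600 are given as a description, and how often they were called under other settings supports nothing about them. Without the dimmest 33.3% of probe sets AT2G36180 was not tested. Ordinary linear-model p-values called 0 of the 37 genes (1 of all probe sets, and 2261 at an unadjusted p of 0.05), and leaving out 1 array called 0 (without either wild type array) to 3. The results on the other 34 genes were added after seeing the data. Of these genes, 1 (CML35) was called with the variance trend and 1 with robust estimation added. At an unadjusted p of 0.05, 3 passed without the dimmest 33.3% (fewer genes tested) and 3 with ordinary p-values. Their median difference was 0.25 without the dimmest 33.3% and 0.019 to 0.11 with 1 array left out. Over all probe sets, robust estimation with the trend called 465, 1 probe set per locus 200 (fewer tested), and leaving out 1 array 0 (without either wild type array) to 1040 (without cdm1 replicate 2). The causes were not tested.

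In the fit with the replicate number as a block, 0 probe sets and 0 of the 37 genes were called by limma, while 3110 probe sets had an unadjusted p under 0.05. Across probe sets, same-numbered arrays deviated from their genotype means with a correlation of -0.066. The labels do not say what a number marks, and whether same-numbered arrays shared a batch was not tested.

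Each alternative was run on 34 of the named genes, 22 of them EF-hand genes, and 8 of the 34 changed sign under at least 1 alternative. CML26, CML28, CML30, CML32, CML33, CML34, CML39, CML40, CML42 and the neighbouring genes are among those it was not run on. With 1 array left out, CML50 ran from -0.0044 to 0.19, CML4 from -0.22 to 0.16, CML48 from -0.057 to 0.12, CML10 from -0.088 to 0.15 (-0.0088 after quantile normalisation), PTL from -0.081 to 0.21, UFO from -0.23 to 0.017, LHCB4.1 from -0.057 to 0.17 and CAMTA4 from -0.35 to 0.056. Signal over background could not be read from these values, which limits what the 22 dim genes show.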
